A study of Mus musculus with 11 samples.

Results

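Transcripts of 10 genes of the Notch pathway were followed in EpCAM+ cells grown from mouse monocytes: the receptors Notch1, Notch2 and Notch4, the ligands Jag1 and Jag2, the DNA-binding mediator Rbpj, the targets Nrarp, Hes1 and Dtx1, and the Deltex family gene Dtx4. They were chosen by symbol from the 21860 genes of the table, by a rule that names no measured value but was drawn up with earlier results of these data known, and every one of the 10 was present. Of these, 9 passed the filter for testing, a normalized count of at least 10 in at least 2 of the 11 samples. Hes1 reached 10 in 1 sample and was not tested. Dtx1 passed through 2 samples alone.

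The cells were CD11b-low EpCAM+ cells sorted after 6 days from C57BL/6 bone marrow monocyte cultures and measured by bulk RNA sequencing. Every culture received GM-CSF at 20 ng/ml. There were 5 groups. A single sample had Jag1 only. TGFβ (5 ng/ml) with IL-34 (8 µg/ml) was given in the other 4 groups, alone (TGFβ/IL-34, 2 samples), with FICZ (TGFβ/IL-34/FICZ, 2 samples), with Jag1 (TGFβ/IL-34/Jag1, 3 samples) or with both (TGFβ/IL-34/Jag1/FICZ, 3 samples). Jag1 was offered by OP9 cells, a mouse bone marrow stromal line made to carry this ligand, and FICZ is a small molecule that the study uses as an agonist of the aryl hydrocarbon receptor (the deposited design text calls it an antagonist). The label for cell type names OP9 co-culture for all 11 samples while the sample codes do not, so an effect called Jag1 below cannot be told apart from an effect of the stromal cells that bring it. The sources used here do not say whether replicates came from separate mice, so the p-values measure the spread between these samples.

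Notch receptors sit in the membrane and are engaged by Jagged or Delta-like ligands on a neighbouring cell. Cleavage then frees the intracellular part of the receptor, which enters the nucleus, joins Rbpj and Mastermind coactivators, and turns on genes such as Hes1, Nrarp and Dtx1. Nrarp protein limits the signal in turn, and Deltex proteins are ubiquitin ligases that act on the receptor. In bone marrow and skin the pathway is known for steering the fate of lymphoid and dendritic cells.

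The promoters of Notch1, Jag1 and Nrarp are shown because these were the 3 genes that passed the test when FICZ was added to Jag1 cultures. Each run holds 250 bases before the start site and 50 from it on, 5′ to 3′ on the strand of the gene (RefSeq, build GRCm38.p6). Capitals mark GCGTG, the core bound by the aryl hydrocarbon receptor with its partner, on either strand, where the opposite strand reads CACGC.
Notch1 promoter, chr2:26503773-26504072, minus strand: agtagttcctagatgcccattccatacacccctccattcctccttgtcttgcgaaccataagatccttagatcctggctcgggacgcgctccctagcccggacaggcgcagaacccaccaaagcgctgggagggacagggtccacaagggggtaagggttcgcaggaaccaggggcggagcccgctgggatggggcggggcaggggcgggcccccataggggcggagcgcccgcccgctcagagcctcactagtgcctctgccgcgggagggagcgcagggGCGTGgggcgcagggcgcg
Jag1 promoter, chr2:137116471-137116770, minus strand: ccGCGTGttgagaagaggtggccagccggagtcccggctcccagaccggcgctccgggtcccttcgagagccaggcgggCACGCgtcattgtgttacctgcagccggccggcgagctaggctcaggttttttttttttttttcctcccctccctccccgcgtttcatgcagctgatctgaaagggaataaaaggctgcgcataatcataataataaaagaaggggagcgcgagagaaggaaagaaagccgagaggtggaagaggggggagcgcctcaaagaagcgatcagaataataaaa
Nrarp promoter, chr2:25180508-25180807, plus strand: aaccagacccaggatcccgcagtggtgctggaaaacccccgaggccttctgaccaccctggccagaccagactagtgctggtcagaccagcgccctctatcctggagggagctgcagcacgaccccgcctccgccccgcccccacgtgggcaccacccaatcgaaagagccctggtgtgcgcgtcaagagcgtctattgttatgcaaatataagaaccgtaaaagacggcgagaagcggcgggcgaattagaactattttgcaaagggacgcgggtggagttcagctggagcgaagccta
The Notch1 window held this core once, 31 bases after the start site, and the Jag1 window held it at positions −248 and −171 from that site. The Nrarp window held none. Promoters were found for 8 of the 10 genes, and 6 of these 8 held GCGTG (Notch1, Notch2, Notch4, Jag1, Jag2 and Dtx1), against 32.4% of all 32851 promoters in the table. TGGGAA, the core bound by Rbpj, lay in 1 of the 8, Rbpj itself, against 25.6% of all promoters, and its longer form GTGGGAA, which contains the core, lay in none of the 8 against 6.38%. These are matches of letters within the windows and not measured binding sites.

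Values are normalized counts, scaled between libraries by the authors. The estimated depth was 20.6 to 24.1 M reads per sample, at which 3 reads are worth 2.68 to 3.46 normalized counts. Differences were tested with limma on log2(normalized count + 1) across 13095 genes, with Benjamini-Hochberg adjustment over those genes. Epcam, used for the sort, stood at 3952 to 14377 in the 10 samples with TGFβ and IL-34 and at 657 in the Jag1 only sample. Cd207 (langerin), which defines Langerhans cells, stood at 1366 to 1784 in TGFβ/IL-34/Jag1, at 154 and 157 in TGFβ/IL-34 and at 6.21 to 132 in the other samples. The TGFβ/IL-34/FICZ samples stood far apart from each other in several of the 10 genes. Replicate 1 of both FICZ groups was run on another flow cell than the other 9 samples.

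Among the 9 tested members, Notch1 had the largest difference both for the Jag1 effect without FICZ and for the FICZ effect with Jag1. Without FICZ it was lower with Jag1 than without, and with Jag1 it was higher with FICZ than without. Notch1 (ENSMUSG00000026923, chr2:26347915-26406675, minus strand, GRCm39) encodes a receptor of the pathway. It was measured at 5541 and 5355 normalized counts in TGFβ/IL-34. In TGFβ/IL-34/Jag1 it was measured at 881, 625 and 1196. Every sample with Jag1 thus lay below both samples without it. Adding FICZ to Jag1 gave 5501, 5017 and 4396, all above the samples with Jag1 alone and in the range seen without Jag1. TGFβ/IL-34/FICZ gave 3347 and 5812, a range that holds those of both TGFβ/IL-34 and TGFβ/IL-34/Jag1/FICZ. The single Jag1 only sample stood at 801, within the range of TGFβ/IL-34/Jag1.

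The Jag1 effect on Notch1 without FICZ was −2.64 on the log2 scale (SE 0.289, limma adjusted p = 0.000649), which is 6.25-fold lower. It was −3.15 and −2.16 in the 2 experiments that held both groups. The FICZ effect with Jag1 was 2.51 (SE 0.259, limma adjusted p = 0.000176), which is 5.68-fold higher, and it was 2.64, 3.00 and 1.88 in the 3 experiments. With FICZ present, the Jag1 effect was 0.17 (95% interval −0.48 to 0.81, limma adjusted p = 0.735), and without Jag1 the FICZ effect was −0.30 (−1.01 to 0.40, limma adjusted p = 0.573). The FICZ effect with Jag1 exceeded that without Jag1 by 2.81 (SE 0.409, limma adjusted p = 0.0164 for the interaction). The interaction did not pass with the experiment as a term (limma adjusted p = 0.0598), with array weights (0.0967), or when TGFβ/IL-34/Jag1/FICZ replicate 1 or 2 (0.0679 and 0.0705) or TGFβ/IL-34 replicate 1 or 2 (0.0750 and 0.102) was left out.

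Notch2, the other abundant receptor, had its highest mean in TGFβ/IL-34, its lowest with Jag1 alone and an intermediate one with Jag1 and FICZ, the order that Notch1 had in these 3 groups. It was measured at 4743 and 4363 in TGFβ/IL-34. It was measured at 2377, 2702 and 2705 in TGFβ/IL-34/Jag1, and these groups did not overlap. TGFβ/IL-34/Jag1/FICZ gave 4128, 3938 and 3569, above every sample with Jag1 alone. TGFβ/IL-34/FICZ gave 1354 and 4579, the lowest value of the series and 1 near the TGFβ/IL-34 samples. Unlike Notch1, the Jag1 only sample was the highest of all, at 5292. Neither the Jag1 effect without FICZ, −0.81 (95% interval −1.67 to 0.04, limma adjusted p = 0.296), nor the FICZ effect with Jag1, 0.58 (−0.19 to 1.34, limma adjusted p = 0.307), passed the test. When TGFβ/IL-34/FICZ replicate 1 was left out, the limma adjusted p was 0.00145 and 0.00187, and when replicate 2 was left out it was 0.00144 and 0.00185, at the same differences, since a group of 1 sample adds nothing to the estimated spread. In those settings the share of all genes that passed also rose, to 16.6% for the Jag1 effect and 31.4% for the FICZ effect. Its interaction was 1.45 (limma adjusted p = 0.212), and 2.33 (9.63e-05) when replicate 2 was left out, where 42.1% of all genes passed.

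Notch4 transcripts were scarce, at 2.25 to 49.3 normalized counts, and varied as widely within groups as between them. TGFβ/IL-34/Jag1 gave 3.96, 49.3 and 42.0, and TGFβ/IL-34/Jag1/FICZ gave 18.4, 2.25 and 35.4. The other samples lay between 3.61 and 36.0. The 95% interval of its Jag1 effect without FICZ ran from −2.32 to 3.55 on the log2 scale, so differences of several fold in either direction lay within it. Per kilobase of the canonical transcript, the receptors ranked Notch1 (564 to 584), Notch2 (413 to 449) and Notch4 (1.10 to 3.65 normalized counts per kb) in TGFβ/IL-34. In TGFβ/IL-34/Jag1 the order of the first pair turned, with Notch2 at 225 to 256 and Notch1 at 65.9 to 126 per kb, and the ranges did not overlap.

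**Figure D1:**
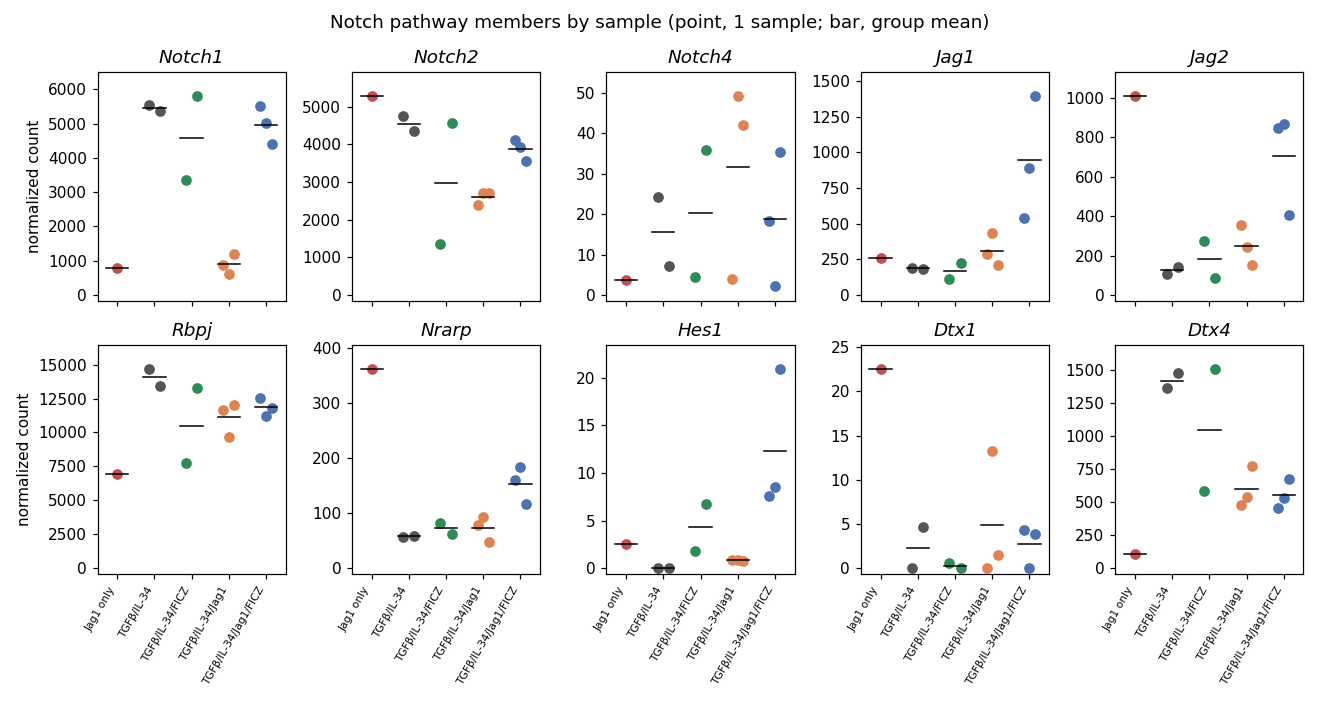
Normalized count of each of the 10 genes (vertical axes, linear, 1 scale per gene) in the 5 culture groups, with 1 point per sample and a bar at the group mean. Notch1 lies at 625 to 1196 with Jag1 alone and at 4396 to 5501 once FICZ is added, and Jag2 and Nrarp are highest in the Jag1 only sample, at 1011 and 361.

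The ligand Jag1 was highest when both Jag1 stroma and FICZ were present. Jag1 (chr2:136923373-136958693, minus strand, GRCm39) encodes the Notch ligand that the OP9 cells were made to carry. It was measured at 192 and 184 in TGFβ/IL-34 and at 113 and 226 in TGFβ/IL-34/FICZ. TGFβ/IL-34/Jag1 gave 286, 437 and 212. TGFβ/IL-34/Jag1/FICZ gave 542, 891 and 1397, all above every other sample of the series. The Jag1 only sample stood at 260, inside the range of TGFβ/IL-34/Jag1. The sources used here do not say whether the construct in the OP9 cells adds reads to the mouse Jag1 gene.

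The FICZ effect on Jag1 transcripts with Jag1 stroma was 1.55 (SE 0.396, limma adjusted p = 0.0216), and it was 0.92, 1.03 and 2.71 in the 3 experiments. It did not pass when TGFβ/IL-34/Jag1 replicate 1 or 3 (limma adjusted p = 0.0665 and 0.0849) or TGFβ/IL-34/Jag1/FICZ replicate 2 or 3 (0.0748 and 0.0841) was left out. The effect of Jag1 stroma with FICZ was 2.45 (SE 0.443, limma adjusted p = 0.0260), and it was lost in 8 of 21 other settings, with array weights among them (limma adjusted p = 0.689). Without FICZ the effect of Jag1 stroma was 0.66 (95% interval −0.32 to 1.65, limma adjusted p = 0.498).

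Transcripts of the stroma, apart from Thy1, were higher in sum in samples with Jag1. Their highest sum fell in the sample with the highest Jag1. Of 11 OP9 stroma markers, 1 or 2 were at 0 in each of the 7 samples with Jag1 and 5 to 9 in each of the 4 without, and Dcn was at 0 in all 11. The summed level of the 11 was 647 to 1370 in TGFβ/IL-34/Jag1 and 14786 to 16833 in TGFβ/IL-34/Jag1/FICZ, and 811 to 1197 in TGFβ/IL-34 and 3601 to 12216 in TGFβ/IL-34/FICZ. Thy1 made up most of it in all 5 FICZ samples, and it was high there with and without Jag1 (3578 to 16084). Without FICZ, Thy1 was lower in TGFβ/IL-34/Jag1 (177 to 284) than in TGFβ/IL-34 (790 and 1185). The sum of the other 10, a split made after the values were seen, was 12.8 to 38.0 without Jag1, 420 to 1086 in TGFβ/IL-34/Jag1 and 744, 1765 and 4646 in TGFβ/IL-34/Jag1/FICZ. In the last group it had the order of the Jag1 values, 542, 891 and 1397. Col1a1, a collagen chain made by stromal cells, stood at 222, 625 and 1345 in the same 3 samples, at 191, 369 and 84.1 in TGFβ/IL-34/Jag1 and at 0 to 3.84 without Jag1. Cxcl12, of the same list, did not have this order, at 7.62, 5.28 and 5.71 in those 3 samples. It stood at 3.94, 28.3 and 28.5 in TGFβ/IL-34/Jag1 and at 0 without Jag1. Pdgfra did not have this order either, at 57.0, 3.12 and 10.5 in TGFβ/IL-34/Jag1/FICZ. Pdgfrb stood at 38.0 and 23.4 in TGFβ/IL-34/FICZ, where it made up the whole sum of the 10. It stood lower in TGFβ/IL-34/Jag1, at 11.4, 19.8 and 10.8, and at 47.4, 74.1 and 85.5 in TGFβ/IL-34/Jag1/FICZ. The part of these transcripts in the Jag1 result was not tested. In bulk samples, fewer cells of a type and less RNA per cell cannot be told apart.

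**Figure D2:**
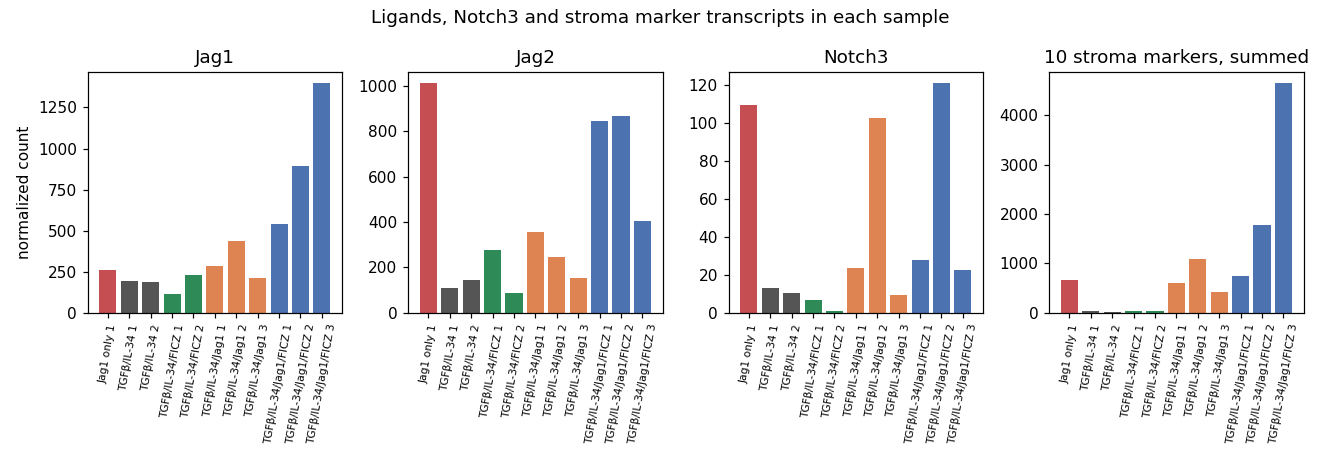
Normalized counts (vertical axes, linear from 0) of Jag1, Jag2 and Notch3 and the sum of 10 stroma markers (the list without Thy1) in each of the 11 samples, 1 bar per sample and 1 colour per group. The stroma sum is at most 38.0 without Jag1 and at least 420 with it, and the 3 TGFβ/IL-34/Jag1/FICZ samples, at 744 to 4646, have the same order in this sum as in Jag1.

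Jag2, the second Jagged ligand, was also highest with both stimuli among cultures with TGFβ. In the main fit the amount missed the threshold. Jag2 (chr12:112871421-112893437, minus strand, GRCm39) stood at 108 and 144 in TGFβ/IL-34 and at 275 and 87.4 in TGFβ/IL-34/FICZ. It stood at 355, 246 and 151 in TGFβ/IL-34/Jag1. TGFβ/IL-34/Jag1/FICZ gave 847, 868 and 404, above all other samples but the Jag1 only sample at 1011. FICZ added to Jag1 gave a difference of 1.49 (SE 0.474, limma adjusted p = 0.0544), and 1.25, 1.82 and 1.41 in the 3 experiments. These 2 groups are paired by replicate number, and with the replicate block the effect passed (limma adjusted p = 0.0247). It passed in 8 of 21 other settings, this block among them. The Jag1 effect with FICZ was 2.10 (SE 0.530, limma adjusted p = 0.0789), and 1.62 and 3.30 in the 2 experiments that held both groups. Replicates 1 and 2 of these groups share an experiment code too, and with the replicate block this effect was 2.44 and passed (limma adjusted p = 0.0419). It passed in 4 of 21 other settings, the block again among them. The Jag1 effect without FICZ was 0.92 (95% interval −0.26 to 2.10, limma adjusted p = 0.411). In TGFβ/IL-34/Jag1/FICZ, replicate 3 had the lowest Jag2 (404) and the highest sum of the 10 stroma markers (4646). In TGFβ/IL-34/Jag1, replicate 3 was the lowest in both (151 and 420). The part of stroma transcripts in the Jag2 result was not tested.

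Rbpj, through which all Notch receptors act on DNA, was the most abundant of the 10 genes per kilobase in every group, at 1274 to 2697 normalized counts per kb. Rbpj (chr5:53623494-53814704, plus strand, GRCm39) was measured at 14671 and 13443 in TGFβ/IL-34 and at 7773 and 13258 in TGFβ/IL-34/FICZ. It was measured at 11666, 9704 and 12038 in TGFβ/IL-34/Jag1 and at 12528, 11244 and 11840 in TGFβ/IL-34/Jag1/FICZ, so those groups overlapped. FICZ added to Jag1 gave a difference of 0.10 (95% interval −0.35 to 0.54, limma adjusted p = 0.810). The Jag1 effect without FICZ was −0.34 (−0.84 to 0.16, limma adjusted p = 0.487). The Jag1 only sample had the lowest value, 6929.

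Among the targets, Nrarp was higher with FICZ in Jag1 cultures. Nrarp (chr2:25070770-25073351, plus strand, GRCm39) encodes an ankyrin repeat protein that is induced by Notch and limits it. It stood at 57.3 and 58.9 in TGFβ/IL-34, at 82.9 and 62.6 in TGFβ/IL-34/FICZ and at 78.5, 93.7 and 48.1 in TGFβ/IL-34/Jag1. TGFβ/IL-34/Jag1/FICZ gave 159, 184 and 117, above all of these. The Jag1 only sample stood higher still, at 361. The FICZ effect with Jag1 was 1.08 (SE 0.323, limma adjusted p = 0.0435), and 1.01, 0.97 and 1.26 in the 3 experiments. It was lost in 10 of 21 other settings, among them quantile normalization (0.77, limma adjusted p = 0.128) and the flow cell as a term (0.0793). Of the samples left out in turn, 7 ended the call, namely replicates 1 and 3 of TGFβ/IL-34/Jag1 (limma adjusted p = 0.0741 and 0.137), replicates 1, 2 and 3 of TGFβ/IL-34/Jag1/FICZ (0.133, 0.171 and 0.0505) and replicates 1 and 2 of TGFβ/IL-34 (0.0702 and 0.0700). The Jag1 effect with FICZ was 1.05 (95% interval 0.25 to 1.86, limma adjusted p = 0.145), and that without FICZ was 0.28 (−0.52 to 1.08, limma adjusted p = 0.771).

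Hes1, the transcriptional repressor best known as a Notch target, was close to the limit of counting in most samples. Hes1 (chr16:29882134-29886643, plus strand, GRCm39) was at 0 in both TGFβ/IL-34 samples and at 0.92, 0.84 and 0.80 in TGFβ/IL-34/Jag1, about the worth of 1 read in each. TGFβ/IL-34/FICZ gave 1.86 and 6.76. TGFβ/IL-34/Jag1/FICZ gave 7.55, 8.49 and 20.9, above every other sample, and the Jag1 only sample stood at 2.52. Since the values rest on few reads, no fold change is given. With no filter on low values (16370 genes), the limma adjusted p for Hes1 was 0.00860 for the FICZ effect with Jag1 and 0.333 for that without Jag1. It was 0.486 for the Jag1 effect without FICZ and 0.732 for the interaction. A FICZ effect on Hes1 that differs between cultures with and without Jag1 was thus not shown. The highest value fell in the sample with the highest stroma sum, and the part of stroma transcripts in it was not tested.

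Dtx1 and Dtx4 belong to the Deltex family, and Dtx1 is also a Notch target. Dtx1 (chr5:120818248-120850879, minus strand, GRCm39) stood at 0 to 4.69 in 9 samples, 4 of them at 0, and reached 13.2 in replicate 2 of TGFβ/IL-34/Jag1 and 22.5 in the Jag1 only sample. No effect on it passed the test, and the 95% interval of the Jag1 effect without FICZ ran from −2.49 to 3.40. Its exons overlap those of Rasal1 on the opposite strand, which had a mean of 4.49, and whether counting used strand is not given in the sources used here.

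Dtx4 was abundant and, without FICZ, stood lower with Jag1, by an amount that missed the threshold. Dtx4 (chr19:12443699-12479479, minus strand, GRCm39) was measured at 1362 and 1472 in TGFβ/IL-34. TGFβ/IL-34/Jag1 gave 478, 541 and 776, and TGFβ/IL-34/Jag1/FICZ gave 459, 528 and 674. Both groups with Jag1 lay below both TGFβ/IL-34 samples, and they overlapped with each other. TGFβ/IL-34/FICZ gave 586 and 1504, and the Jag1 only sample was the lowest at 108. The Jag1 effect without FICZ was −1.27 (SE 0.368, limma adjusted p = 0.0725). It passed in 7 of 21 other settings, among them those that left out TGFβ/IL-34/FICZ replicate 1 or 2 (limma adjusted p = 0.00630 and 0.00637) and with only the 2 groups compared (0.0155). The FICZ effect with Jag1 was −0.10 (95% interval −0.83 to 0.63, limma adjusted p = 0.891). With FICZ present, the Jag1 effect was −0.78 (95% interval −1.60 to 0.04, limma adjusted p = 0.227), and those groups overlapped. The interaction was 0.49 (limma adjusted p = 0.581). With both stimuli Dtx4 thus lay at 459 to 674 against 1362 and 1472 in TGFβ/IL-34, where Notch1 lay at 4396 to 5501 against 5355 and 5541.

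**Figure D3:**
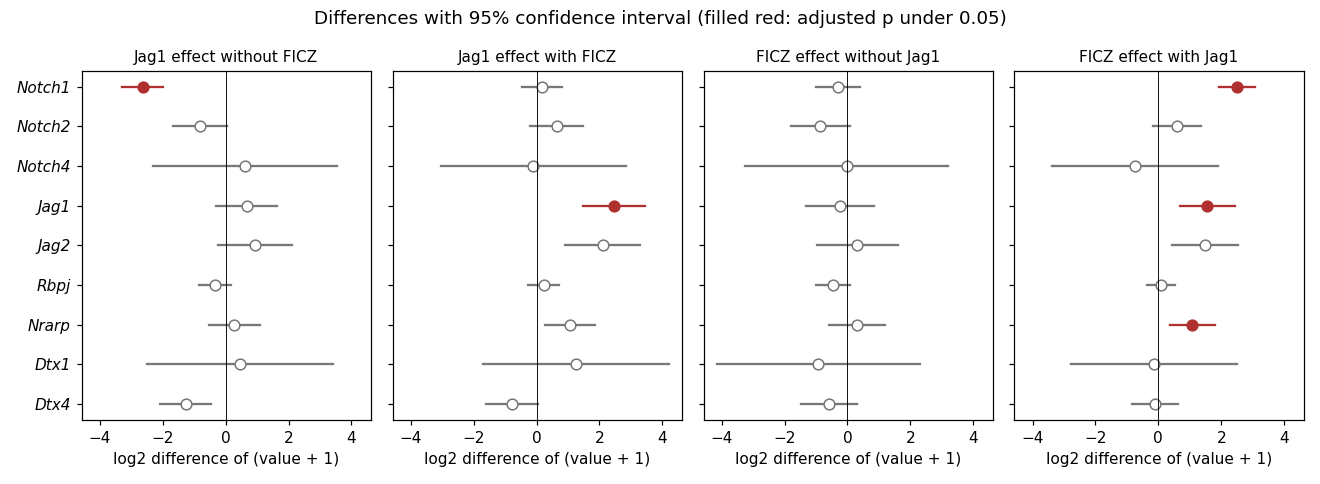
Differences in log2(normalized count + 1) with 95% confidence intervals (horizontal axes) for the 9 tested genes in the 4 comparisons, filled red where the limma adjusted p was under 0.05. Notch1 passed in opposite directions for the Jag1 effect without FICZ (−2.64) and the FICZ effect with Jag1 (2.51), and no gene passed for the FICZ effect without Jag1.

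Counted over the comparisons, 1 of the 9 tested members passed for the Jag1 effect without FICZ (Notch1, lower), where 6.60% of all tested genes passed. For the Jag1 effect with FICZ 1 of 9 passed (Jag1, higher), against 2.02% of all genes, and 2 of 9 with the replicate block (Jag1 and Jag2), against 1.43%. For the FICZ effect with Jag1 3 of 9 passed (Notch1, Jag1 and Nrarp, all higher), against 17.7%. For the FICZ effect without Jag1 0 of 9 passed by limma, and 0 had an unadjusted p under 0.05, where 0.0229% of all genes passed, 3 in number, and 2284 genes (17.4%) had an unadjusted p under 0.05. In that comparison 3 of 9 passed once replicate 2 of TGFβ/IL-34/FICZ was left out, where 43.9% of all genes passed. For the interaction 1 of 9 passed (Notch1), against 1.39%, and 5 of 9 once TGFβ/IL-34/FICZ replicate 2 was left out, where 42.1% of all genes passed. Groups that did not overlap were common among all genes, at 46.6% for the Jag1 effect without FICZ, 35.8% for the Jag1 effect with FICZ and 45.1% for the FICZ effect with Jag1. These comparisons share samples with each other, so they are not independent.

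The single Jag1 only sample, which had GM-CSF and Jag1 stroma but neither TGFβ nor IL-34, lay outside the range of the other 10 samples in 6 of the 9 tested members, against 38.2% of all tested genes. For Hes1, which was not tested, it lay inside that range. It was the highest in Notch2 (5292), Jag2 (1011), Nrarp (361) and Dtx1 (22.5) and the lowest in Rbpj (6929) and Dtx4 (108). It has no replicate, so these differences were not tested. Its Epcam level, 657, was the lowest of all, and its sums of mast cell and basophil markers (2335) and of granulocyte progenitor markers (408) lay above those of TGFβ/IL-34/Jag1 (132 to 186 and 49.3 to 254). In TGFβ/IL-34 these sums were 656 to 861 and 218 to 370. Cpa3 (2053) made up most of the first sum. In the second, Ctsg stood at 221 against 11.9 to 33.8 in TGFβ/IL-34/Jag1, and Mpo at 27.2 against 3.42 to 12.2. Elane (3.10) and Prtn3 (156) lay inside the TGFβ/IL-34/Jag1 ranges (0 to 9.07 and 28.3 to 207).

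Markers of other blood cells moved with FICZ beside the Notch genes. The summed level of 4 granulocyte progenitor markers was 3767 to 6395 in TGFβ/IL-34/Jag1/FICZ and 1738 to 3707 in TGFβ/IL-34/FICZ, against 218 to 370 in TGFβ/IL-34. Elane, Prtn3 and Ctsg made up nearly all of it, and Mpo, a defining marker of the same list, stood at 0 to 12.2 in the 10 samples with TGFβ. The sum of 4 mast cell and basophil markers was 2270 to 4590 in TGFβ/IL-34/Jag1/FICZ, against 132 to 186 in TGFβ/IL-34/Jag1. It also stood higher with FICZ in cultures without Jag1, at 4036 to 4037 in TGFβ/IL-34/FICZ against 656 to 861 in TGFβ/IL-34. Cpa3 alone made up 1984 to 4053 of it in TGFβ/IL-34/Jag1/FICZ, and Fcer1a, of the same list, was at 0 in all 11 samples. Ms4a2 (58.5 to 59.6) and Mcpt8 (228 to 479) added little to the sum but also lay above TGFβ/IL-34/Jag1 (0 to 2.48 and 31.2 to 37.7). The sum of 6 Langerhans-like markers was 310386 to 316944 in TGFβ/IL-34/Jag1, where Notch1 was low, and 65857 to 150570 in the other groups with TGFβ. Mfge8 alone made up 260985 to 275951 of it in TGFβ/IL-34/Jag1. Id2, of the same list, lay the other way, at 7538 to 12379 in TGFβ/IL-34/Jag1 and 12707 to 16482 in TGFβ/IL-34/Jag1/FICZ. The part of such cells in the differences of Notch1, Jag2 and Nrarp was not tested. Lymphocyte markers stayed at sums of 4.78 to 37.6 over 4 genes.

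Of 58 other genes of the pathway, 52 were tested and few passed. For the Jag1 effect without FICZ 0 of 52 passed by limma (1 higher and 3 lower at an unadjusted p under 0.05, against 19.0% of all tested genes in either direction), with a median difference of 0.05 on the log2 scale against −0.0041 over all tested genes. For the FICZ effect with Jag1 1 was higher and 3 were lower, against 17.7% of all tested genes in either direction (13 of the 52 and 30.2% of all at an unadjusted p under 0.05), with a median of −0.04 against −0.01. In limma 0 of the 52 passed for the Jag1 effect with FICZ, the FICZ effect without Jag1 or the interaction, where 15, 9 and 7 had an unadjusted p under 0.05, against 23.2%, 17.4% and 18.8% of all tested genes. The medians there were 0.17, −0.26 and 0.22, against 0.05, −0.02 and 0.07 over all tested genes. The members' own medians over the 9 tested genes were 0.28 and 0.64 for the Jag1 effect without and with FICZ, −0.30 and 0.58 for the FICZ effect without and with Jag1, and 0.80 for the interaction. When 1 sample was left out, that of the Jag1 effect without FICZ ran from −0.28 (without TGFβ/IL-34 replicate 1) to 0.28, and it was −0.19 without TGFβ/IL-34 replicate 2, −0.11 without TGFβ/IL-34/Jag1 replicate 2 and −0.03 without the Jag1 only sample. Without TGFβ/IL-34/FICZ replicate 1 the medians of the Jag1 effect with FICZ and of the FICZ effect without Jag1 also changed sign (−0.16 and 0.087).

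Maml2, a Mastermind coactivator, stood at 320, 361 and 585 in TGFβ/IL-34/Jag1 and at 111, 45.8 and 104 once FICZ was added. Its FICZ effect with Jag1 was −2.32 (SE 0.416, limma adjusted p = 0.00355). Without Jag1 it also stood lower with FICZ, at 23.9 and 47.7 against 143 and 113 in TGFβ/IL-34. Fbxw7, which marks the cleaved receptor for degradation, had a FICZ effect of −0.63 with Jag1 (SE 0.171, limma adjusted p = 0.0283). The corepressor gene Ctbp2 had −0.59 (SE 0.154, limma adjusted p = 0.0244), and Tle3, a Groucho family corepressor gene, had 0.49 (SE 0.148, limma adjusted p = 0.0441, and 0.0542 with the replicate block). Maml2 kept the FICZ call in 21 of 21 other settings, while Fbxw7 lost it in 9, Ctbp2 in 4 and Tle3 in 11. Without Jag1, Fbxw7 stood at 326 and 386 with FICZ against 465 and 495 in TGFβ/IL-34, and Ctbp2 at 708 and 807 against 1058 and 985. Tle3 overlapped there, at 4271 and 5417 against 5618 and 5024. No FICZ effect without Jag1 and no interaction passed for these genes, so a FICZ effect particular to Jag1 cultures was not shown.

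Notch3, the remaining receptor, was scarce without Jag1, at 10.1 to 13.0 in TGFβ/IL-34 and 6.55 and 0.64 in TGFβ/IL-34/FICZ. It stood at 23.5, 103 and 9.04 in TGFβ/IL-34/Jag1 and at 27.8, 121 and 22.6 in TGFβ/IL-34/Jag1/FICZ, and at 109 in the Jag1 only sample. The Jag1 effect with FICZ was 3.63 (SE 1.06, limma adjusted p = 0.108) and did not pass. Of the Delta-like ligands, Dll1 stood at 0 to 76.1 and Dll4 at 6.64 to 52.9, both highest in the Jag1 only sample. Of the Hes and Hey family genes, Hes6 was the most abundant at 611 to 1498. Hes5 at 0 to 12.5 and Hey1 at 2.14 to 13.1 were near the floor. These 6 genes were named after their values were seen.

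**Figure D4:**
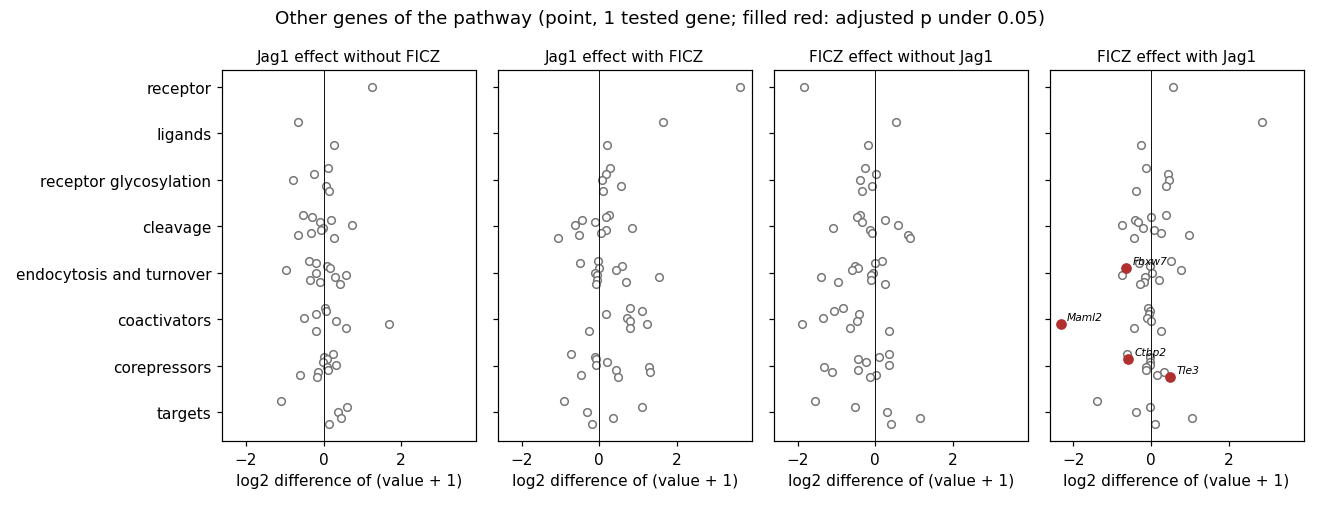
Differences in log2(normalized count + 1) (horizontal axes) of the 52 tested other genes of the pathway, 1 point per gene, grouped by role, in the 4 comparisons, with filled red points where the limma adjusted p was under 0.05. All 4 genes that passed did so for the FICZ effect with Jag1, where Maml2 (−2.32) lies farthest to the left and Tle3 (0.49) is the 1 gene that was higher.

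The genes whose levels over the 11 samples were most like those of each member are given as a description. Pearson correlations were taken on log2(value + 1) against 10913 genes with a mean of at least 50, over samples that share groups, experiments and depth. Notch1 was most like Trem1 (r = 0.971), Siglecf (0.970) and F2r (0.969). Jag1 was most like Lox (0.868), Sparc (0.862) and Bzw1 (0.858), of which Lox and Sparc encode matrix proteins of stromal cells. Sparc, a stroma marker of the list, stood at 0 to 5.19 without Jag1 and at 32.7, 112 and 333 in TGFβ/IL-34/Jag1/FICZ. Nrarp was most like Sema7a (0.982), Ktn1 (0.978) and Tinagl1 (0.976), and Dtx4 was most like Hepacam2 (0.979), Nfam1 (0.978) and Dnal1 (0.975). Notch2 was most like Slc26a2 (0.977), Zbtb39 (0.964) and Prdm2 (0.954). Jag2 was most like Tspan13 (0.946), Ube2b (0.946) and Tnfrsf9 (0.945), and Rbpj was most like Lpcat3 (0.950), Dph6 (0.945) and Slc4a7 (0.943).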

How the data were processed

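Bulk RNA sequencing of 11 samples was analysed from the gene table of the study. The authors quantified reads with salmon, combined the transcripts of each gene with tximport and normalised with DESeq2 (GRCm39, per the labels and methods; versions not given in the sources used here). The deposited values are a normalized signal per gene, divided by library size and, judged from low values, by a length factor per gene and sample, so whole reads were not recovered for all genes and no count model was run. The estimated depth rests on the step between low values. The precision of low genes is limited by counting error. A second file of the authors, with an experiment code and condition per sample, matched the labels except for the code of replicate 1 of TGFβ/IL-34.

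Genes that reached a value of 10 in 2 or more samples were fitted as log2(value + 1) with limma 3.58.1 in R 4.3.3 (1 mean per group, trend in eBayes, 6 residual degrees of freedom, two-sided, Benjamini-Hochberg adjustment per comparison, threshold 0.05). The script was tested on simulated data. The 10 members and all lists were chosen with earlier results of these data known. All 10 members are described. Of 58 other pathway genes, up to 3 per comparison and direction were named by size of difference among those that passed, and for members with a mean of at least 50 the 3 genes with the highest correlation. The result of 1 further listed gene is not reported here. Replicate numbers were checked for pairing by the correlation of deviations from group means: 0.153, 0.122 and 0.166 between the Jag1 groups with and without FICZ, where same numbers also share an experiment code, so they were taken as paired. Replicates 1 and 2 of the FICZ groups with and without Jag1 share a code too and were taken as paired, at correlations of 0.0591 and 0.0578. In the other comparisons these were −0.00699 to 0.0475 and the samples were not taken as paired. The main fit did not use the pairing, which entered only through the replicate block and the experiment terms. By the codes of the sample descriptions, that block also set replicates 1 and 2 of TGFβ/IL-34 beside samples of another experiment. Alternatives were quantile normalization, other pseudocounts, no filter, array weights, a replicate block, experiment and flow cell terms, leaving out each sample, and fitting only the groups compared. Promoter sequences came from RefSeq (GRCm38.p6) and gene positions from GENCODE vM39 (GRCm39). No protein sequences were used here. Python 3.11.15 and pandas 2.3.3 were used for sequences.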

Additional observations from a re-analysis of the deposited data

Results flagged for a closer look

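The FICZ effect on Notch1 differed between cultures with and without Jag1 by 2.81 on the log2 scale (SE 0.409, limma adjusted p = 0.0164), by a test of the difference itself. FICZ changed Notch1 by 2.51 with Jag1 and by −0.30 without it, and in the FICZ group without Jag1 the 2 samples stood at 3347 and 5812 normalized counts. Over the 20 alternatives that could be run, the limma adjusted p of this difference was 0.000292 to 0.102.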

How the results depend on the processing

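Over the alternatives, 922 values of the 9 tested members were recomputed: 820 kept their direction and their side of the threshold, 28 no longer passed, 38 newly passed and 36 changed sign, none of these 36 being a call. Dtx1 gave no value in settings in which it no longer passed the filter. Notch1 kept both its Jag1 effect without FICZ (limma adjusted p 3.26e-06 to 0.0146) and its FICZ effect with Jag1 in 21 of 21 settings. The number of members that passed for the Jag1 effect without FICZ (1) was 4 with array weights (20.1% of all genes), 3 with only the groups compared (10.5%), and 2 with the replicate block, the flow cell or the experiment code of the authors' file (5.57% to 7.92%), the last chosen after seeing the data. For the Jag1 effect with FICZ (1) it was 0 with no filter, array weights or only the groups compared (0% to 1.18%), and 2 with the replicate block, the experiment code or the flow cell (1.43% to 2.19%). For the FICZ effect with Jag1 (3) it was 5 with array weights (31.5%) or only the groups compared (28.4%), and quantile normalization gave 2 (18.7%) and the replicate block 4 (17.8%). For the interaction (1) it was 0 with array weights (0.0611%) or the experiment code (0.336%). Leaving out 1 sample gave 1 to 3, 0 to 3, 1 to 5 and 0 to 5 in these 4 comparisons and 0 to 3 for the FICZ effect without Jag1, while the share of all genes ran from 1.5% to 16.6%, 0.414% to 44.6%, 10.7% to 31.4%, 0.0690% to 42.1% and 0% to 43.9%. The highest counts came without replicate 2 of TGFβ/IL-34/FICZ, and for the Jag1 effect without FICZ and the FICZ effect with Jag1 also without its replicate 1. The lowest for the FICZ effect with Jag1, 1, came when TGFβ/IL-34/Jag1 replicate 1 or 3 or TGFβ/IL-34/Jag1/FICZ replicate 2 was dropped. The 0 for the Jag1 effect with FICZ came when either TGFβ/IL-34 sample or TGFβ/IL-34/Jag1/FICZ replicate 2 or 3 was dropped. The 0 for the interaction came when either TGFβ/IL-34 sample or TGFβ/IL-34/Jag1/FICZ replicate 1 or 2 was dropped. With 1 sample left in a group, its spread was assumed to equal that of the other groups. Such a group also drops out of the estimated spread, as said for Notch2. What else shifted the counts was not tested.

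The replicate block brought the FICZ effect with Jag1 and the Jag1 effect with FICZ on Jag2 past the threshold (limma adjusted p = 0.0247 and 0.0419). Where the numbers do not pair samples it did the same for the Jag1 effect without FICZ on Dtx4 (0.0317), and it changed no other call of a member. Of values that were not called, the FICZ effect without Jag1 changed sign for Notch4 with quantile normalization (0.26), a pseudocount of 4 (0.043), the experiment code (0.89), the flow cell (0.33) and the code of the authors' file (0.19), for Jag1 with the experiment code (0.048) and the flow cell (0.28), and for Jag2 with the same terms (−0.26 and −0.18). The FICZ effect with Jag1 on Dtx4 became 0.17 with the flow cell, and the interaction of Dtx1 became −0.67 with quantile normalization. Quantile normalization moved the median of all genes from 0.07 to −0.03 in the interaction. Leaving out 1 sample gave the following ranges across 0. For the Jag1 effect without FICZ they were −0.19 to 1.69 (Notch4) and −0.80 to 1.71 (Dtx1). For the Jag1 effect with FICZ they were −0.23 to 0.56 (Notch1), −0.24 to 1.51 (Notch2), −1.49 to 1.29 (Notch4) and −0.16 to 0.61 (Rbpj). For the FICZ effect without Jag1 they were −0.70 to 0.094 (Notch1), −1.75 to 0.0094 (Notch2), −1.41 to 1.36 (Notch4), −0.73 to 0.27 (Jag1), −0.50 to 1.14 (Jag2), −2.18 to 0.32 (Dtx1) and −1.27 to 0.087 (Dtx4). For the FICZ effect with Jag1 they were −1.82 to 0.27 (Notch4), −0.99 to 0.65 (Dtx1) and −0.25 to 0.10 (Dtx4), and for the interaction −2.10 to 0.67 (Notch4), −0.46 to 2.05 (Dtx1) and −0.19 to 1.17 (Dtx4). Alternatives for the other pathway genes were added after seeing the data, and no such gene changed sign. The calls of Fbxw7 were lost at a limma adjusted p of up to 0.114, those of Ctbp2 at up to 0.116 and those of Tle3 at up to 0.153, in all 3 mostly when a sample was dropped. Depth limits Hes1 and Dtx1, whose values rest on few reads in most samples.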
